A study of Mus musculus with 12 samples.

Results

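The 10 genes of brain endothelial identity and Wnt signalling are described here, out of the 21956 genes measured by RNA sequencing of mouse brain tissue. They are 7 transcription factors of endothelial cells (Sox7, Sox17, Sox18, Foxf2, Foxq1, Tbx1 and Erg), the transcription factor Lef1 that carries the Wnt signal in the nucleus, and the Wnt target genes Axin2 and Apcdd1. Each of the 10 symbols matched 1 row of the count table. The genes were chosen by name with results from these same libraries already known, so all of their levels and differences in the 4 groups are given as a description. An adjusted p printed for a member is its place in a fit of the whole table, and is no independent evidence about these genes.

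The 12 libraries were 3 in each of 4 groups, and each library was taken as 1 mouse. The titles of the ICH-Fabp4flox/flox libraries, and only those, end in an extra number that the labels do not explain. Intracerebral hemorrhage (ICH) was produced by injecting collagenase into the right striatum, and the tissue around the hematoma was taken 48 h later, whereas sham mice had the same operation with no collagenase. All mice carried Fabp4 alleles flanked by loxP sites. Sham-Fabp4flox/flox and ICH-Fabp4flox/flox mice kept Fabp4, the gene of a fatty acid binding protein. Sham-Fabp4CKO and ICH-Fabp4CKO mice also carried Tmem119-CreERT2, a Cre recombinase driven by a microglial promoter and switched on with tamoxifen before the operation. The deletion was thus aimed at microglia, and the genes described here belong mainly to other cells of the same bulk tissue. The age and sex of these mice were not given in the labels. The design asked how microglial Fabp4 shapes the response of the tissue to a hemorrhage.

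The libraries held between 15650813 and 22406216 counts. Fabp4 itself had 2, 1 and 2 counts in the Sham-Fabp4flox/flox mice, 0 in each Sham-Fabp4CKO mouse, 46, 63 and 24 in the ICH-Fabp4flox/flox mice and 5, 3 and 10 in the ICH-Fabp4CKO mice. The mitochondrial share of counts was 16.3% in ICH-Fabp4flox/flox mouse 1 and between 7.90% and 11.9% elsewhere. Reads of Y-linked genes numbered 1 in ICH-Fabp4CKO mouse 1 and between 1302 and 2251 in the others. None of the 18 endothelial markers was at 0 in any group. In bulk tissue, fewer cells of a type and less RNA per cell cannot be told apart.

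Endothelial cells line the vessels of the brain and hold the blood-brain barrier together with tight junctions. Their fate is set by ETS factors such as ERG and by the SoxF proteins (SOX7, SOX17 and SOX18), which bind DNA through a high mobility group box and share part of their work in vessel formation. The Wnt7 proteins made by neighbouring glial and neural cells bind Frizzled receptors on these cells with the help of GPR124 and RECK. This keeps beta-catenin from being degraded, so that it reaches TCF and LEF factors in the nucleus and switches on target genes. FOXQ1 and FOXF2 are among the factors that distinguish brain endothelium from that of other organs, and FOXF2 is also made by brain pericytes. Axin2 and Apcdd1 encode inhibitors that dampen the Wnt signal, and Axin2 is read in many cell types, oligodendrocyte precursors among them.

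The promoters of Tbx1, Erg and Axin2 are shown because these genes had the widest difference between the ICH groups, the closest tie to endothelial identity and the only call downwards among the members in ICH-Fabp4flox/flox against Sham-Fabp4flox/flox, in that order. RefSeq promoters on GRCm38.p6 were matched for 5 of the 10 members (Foxf2, Tbx1, Lef1, Erg and Axin2), and for each the 250 bases before its outermost listed start are considered. The capitals mark GGAAG on either strand, the core letters of a site for ETS factors. The Tbx1 window lies at chr16:18590672-18590921 on the minus strand, the Erg window at chr16:95586594-95586843 on the minus strand and the Axin2 window at chr11:108920099-108920348 on the plus strand.
Tbx1: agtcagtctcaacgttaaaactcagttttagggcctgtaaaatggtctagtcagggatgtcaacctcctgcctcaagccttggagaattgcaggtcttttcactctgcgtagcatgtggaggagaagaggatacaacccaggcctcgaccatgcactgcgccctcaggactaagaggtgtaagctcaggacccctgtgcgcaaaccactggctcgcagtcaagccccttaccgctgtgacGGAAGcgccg
Erg: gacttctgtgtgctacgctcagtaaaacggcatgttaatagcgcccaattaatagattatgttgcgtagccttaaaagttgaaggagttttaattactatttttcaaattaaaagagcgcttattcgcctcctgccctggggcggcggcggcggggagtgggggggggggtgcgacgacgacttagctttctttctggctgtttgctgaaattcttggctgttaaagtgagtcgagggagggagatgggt
Axin2: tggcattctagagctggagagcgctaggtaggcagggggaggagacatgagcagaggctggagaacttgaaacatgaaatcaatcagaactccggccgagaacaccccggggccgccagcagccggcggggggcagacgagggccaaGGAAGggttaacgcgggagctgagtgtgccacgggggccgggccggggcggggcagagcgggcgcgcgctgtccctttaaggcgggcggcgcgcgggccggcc

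GGAAG occurred 1 time in the windows of Tbx1, Axin2 and Foxf2 and 0 times in those of Erg and Lef1, and 64.1% of all 32851 promoter windows held it. TCAAAG, the core letters of a site for TCF and LEF factors, was searched on both strands in the same windows and does not overlap GGAAG. It occurred in 0 of the 5 windows and in 13.8% of all windows. The CpG count was 24 in the Axin2 window, 21 in that of Foxf2, 14 in that of Erg, 11 in that of Lef1 and 10 in that of Tbx1, against a median of 6 over all windows. These counts describe the letters of short windows, and no more.

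**Figure D1:**
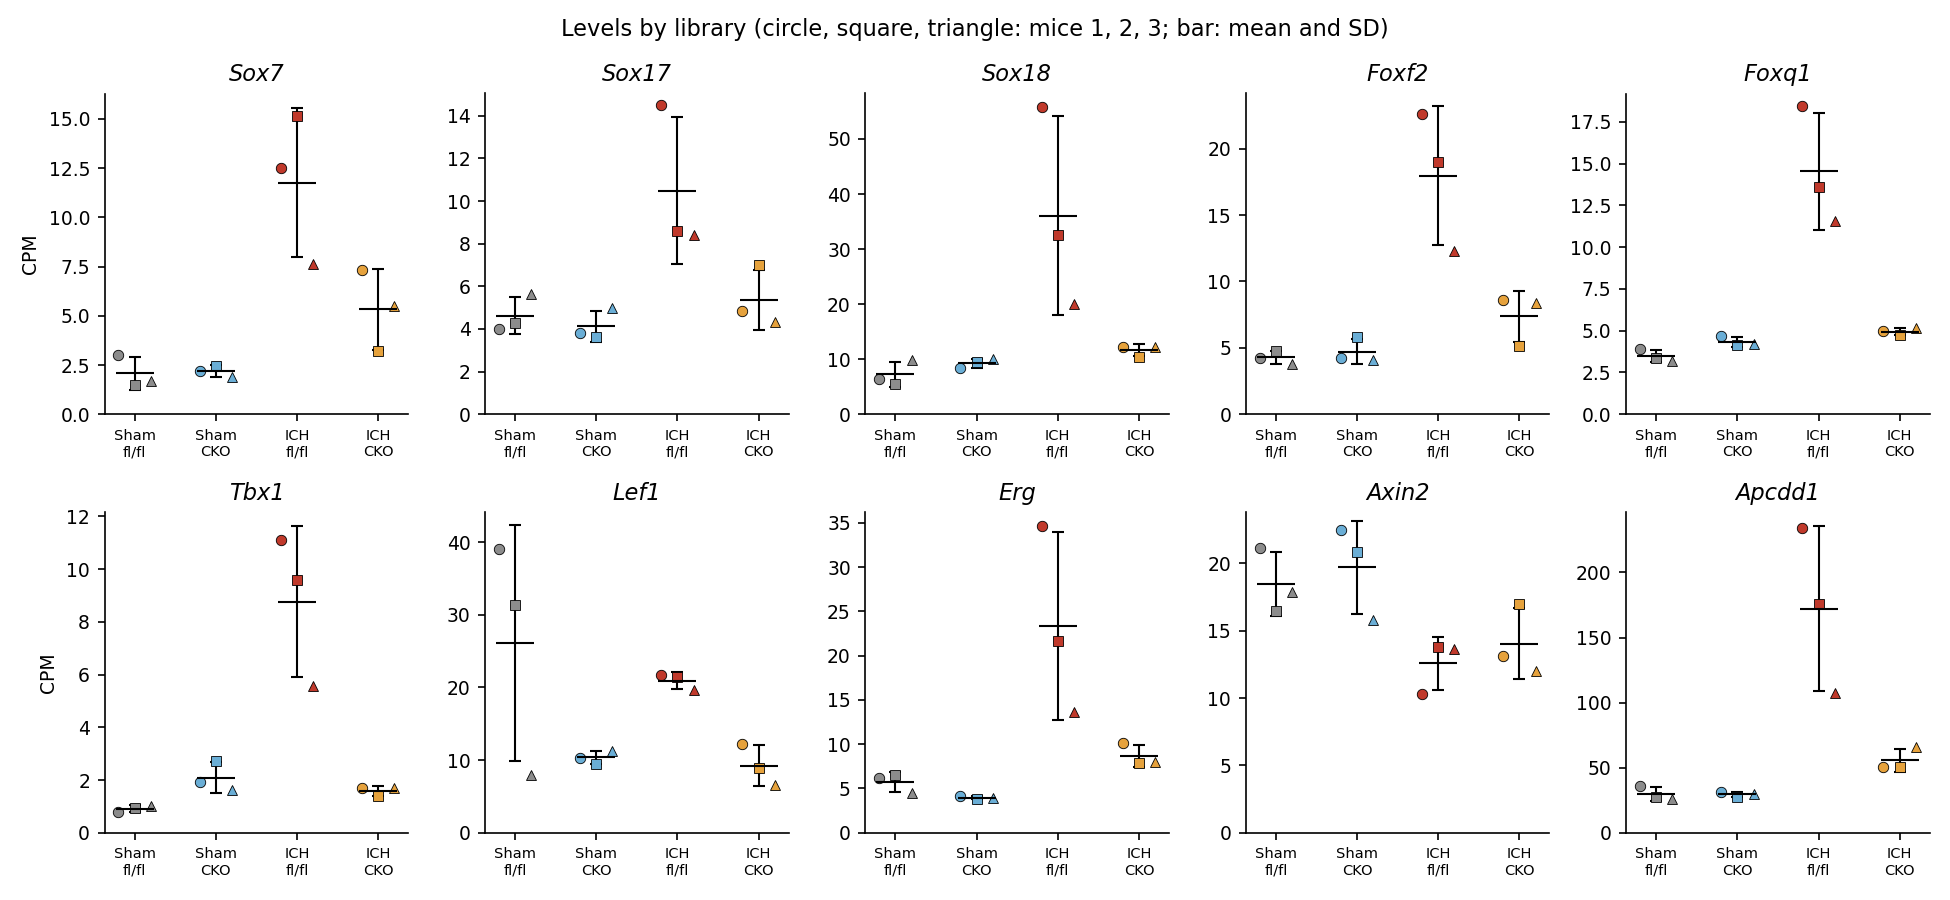
Level of each of the 10 genes in CPM (counts scaled to library size, y axis) in the 12 libraries, by group (x axis), with the mean and SD of each group as bars; each panel has its own scale starting at 0. In 8 panels the 3 ICH-Fabp4flox/flox mice stand above both sham groups and above the ICH-Fabp4CKO mice, while Lef1 and Axin2 follow other patterns.

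The first question is what the hemorrhage did where Fabp4 was intact. In ICH-Fabp4flox/flox against Sham-Fabp4flox/flox, 8 of the 10 members rose, Axin2 fell and Lef1 did not pass the test. Over all 14719 genes tested, 26.2% rose and 19.3% fell at an adjusted p under 0.05 (edgeR quasi-likelihood test, Benjamini-Hochberg adjustment). The median log2 fold change was 2.01 over the 10 members and 0.02 over all genes. The 18 endothelial markers, a list that shares no gene with the members, all rose as well, with a median log2 fold change of 1.89.

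Sox7, active in forming vessels, had the largest log2 fold change of the 3 SoxF genes. Levels are given throughout in CPM, with library sizes scaled over the 12 libraries by the trimmed mean of M values (TMM), in the order of mice 1, 2 and 3. Sox7 stood at 3.04, 1.48 and 1.70 CPM in the Sham-Fabp4flox/flox mice and at 12.5, 15.1 and 7.65 CPM in the ICH-Fabp4flox/flox mice. All ICH mice were above all sham mice. The fitted log2 fold change was 2.45 (SE 0.37, adjusted p = 0.00225 by edgeR), or 5.47-fold.

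Sox17, which marks arterial endothelium, had the smallest rise among the members that rose. It read 4.00, 4.27 and 5.63 CPM in Sham-Fabp4flox/flox and 14.5, 8.60 and 8.39 CPM in ICH-Fabp4flox/flox. The groups were apart, and mouse 1 stood above the other ICH mice. The log2 fold change was 1.13 (SE 0.28, adjusted p = 0.0150 by edgeR). That call was lost without Sham-Fabp4flox/flox mouse 1 or mouse 2, with adjusted p of 0.0574 and 0.0639.

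Sox18, a factor of vessel and lymphatic development, was the most spread of the 3 after ICH. Its levels were 6.46, 5.42 and 9.81 CPM in Sham-Fabp4flox/flox and 55.7, 32.5 and 20.1 CPM in ICH-Fabp4flox/flox. Mouse 1 had the highest level and mouse 3 the lowest, and both were above every sham mouse. The log2 fold change was 2.26 (SE 0.39, adjusted p = 0.00392 by edgeR).

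The forkhead genes Foxf2 and Foxq1 rose by nearly the same factor. Foxf2 read 4.24, 4.76 and 3.82 CPM in Sham-Fabp4flox/flox and 22.6, 19.0 and 12.3 CPM in ICH-Fabp4flox/flox, a log2 fold change of 2.02 (SE 0.25). Foxq1 read 3.90, 3.40 and 3.20 CPM and 18.4, 13.6 and 11.6 CPM in the same groups, a log2 fold change of 2.01 (SE 0.23). For both genes the sham mice lay close together, every ICH mouse was far above them, and ICH mouse 1 was the highest and mouse 3 the lowest. The 2 genes lie next to each other among the protein-coding genes of chromosome 13 in the GRCm38.p6 annotation, with Foxc1 as the next neighbour of Foxf2.

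Tbx1, a T-box factor known for heart and pharyngeal development and for vessels of the brain, had the largest log2 fold change of the 10 members. It was rare in sham tissue, with 0.771, 0.931 and 1.03 CPM in Sham-Fabp4flox/flox, and reached 11.1, 9.60 and 5.58 CPM in ICH-Fabp4flox/flox. The lowest ICH level was several times the highest sham level. The log2 fold change was 3.21 (SE 0.33, adjusted p = 0.00061 by edgeR), or 9.24-fold. The raw counts behind Tbx1 ran from 16 to 158 over the 12 libraries, the fewest of any member, so its sham levels carry the largest counting error.

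Erg, the ETS factor that keeps endothelial genes on, read 6.17, 6.52 and 4.44 CPM in Sham-Fabp4flox/flox and 34.7, 21.7 and 13.7 CPM in ICH-Fabp4flox/flox. Every ICH mouse was above every sham mouse, again with mouse 1 highest. The log2 fold change was 1.98 (SE 0.34, adjusted p = 0.00382 by edgeR), or 3.94-fold.

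The 3 genes of the Wnt branch did not move together. Apcdd1, which encodes a membrane-bound Wnt inhibitor, rose from 35.7, 27.2 and 25.7 CPM to 234, 175 and 107 CPM, with a log2 fold change of 2.50 (SE 0.29, adjusted p = 0.000833 by edgeR). Axin2, a scaffold of the complex that degrades beta-catenin and a widely used Wnt target, went from 21.1, 16.4 and 17.9 CPM to 10.3, 13.8 and 13.7 CPM. Its groups were apart in the opposite direction, and the log2 fold change was -0.59 (SE 0.19, adjusted p = 0.0393 by edgeR). The fall of Axin2 rests on a narrow margin: leaving out 1 of the 6 mice ended the call for every mouse but ICH-Fabp4flox/flox mouse 3, with adjusted p between 0.0591 and 0.106 for the other 5. The fall of Axin2 kept its sign in each of these fits.

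Lef1 had overlapping groups. It read 39.1, 31.4 and 7.90 CPM in Sham-Fabp4flox/flox and 21.7, 21.4 and 19.7 CPM in ICH-Fabp4flox/flox. The ICH mice lay close together, while sham mice 1 and 2 stood above them and sham mouse 3 far below. The log2 fold change was -0.36 (SE 0.49, adjusted p = 0.571 by edgeR), and it was -0.84 with an adjusted p of 0.0116 when Sham-Fabp4flox/flox mouse 3 was left out.

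**Figure D2:**
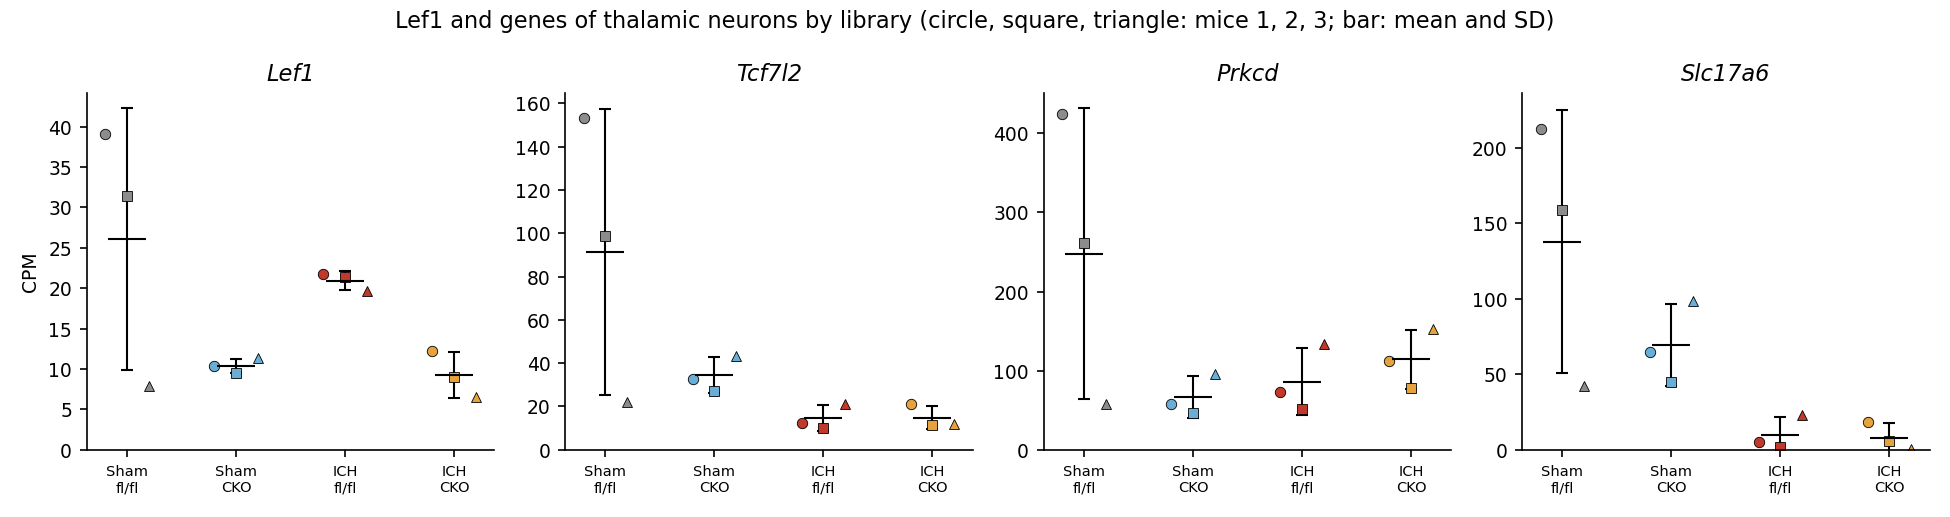
Levels in CPM (y axis) of Lef1 and of Tcf7l2, Prkcd and Slc17a6, genes of thalamic neurons, in the 12 libraries by group (x axis), with group means and SD as bars. Sham-Fabp4flox/flox mice 1 and 2 are the highest libraries in all 4 panels, and mouse 3 of that group lies near the other groups.

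The sham mice with high Lef1 were also those with high thalamic genes, and thalamic neurons are known to make Lef1. Tcf7l2, its relative in the same factor family, read 153, 98.8 and 21.8 CPM in Sham-Fabp4flox/flox mice 1, 2 and 3, and between 10.1 and 43.3 CPM in the other 9 libraries. The protein kinase gene Prkcd read 424, 262 and 58.2 CPM in those mice, and Slc17a6, the vesicular glutamate transporter of thalamic neurons, read 213, 159 and 42.0 CPM. The summed level of all 6 thalamic markers was 1245, 887 and 210 CPM in the Sham-Fabp4flox/flox mice, 207 to 374 CPM in Sham-Fabp4CKO, 155 to 355 CPM in ICH-Fabp4flox/flox and 173 to 238 CPM in ICH-Fabp4CKO, with none of the 6 at 0 in any group. Tcf7l2 is not among these 6 markers. The 6 striatal neuron markers summed to 1103, 1263 and 3333 CPM in the Sham-Fabp4flox/flox mice and to between 2264 and 3969 CPM in Sham-Fabp4CKO. They summed to between 1003 and 2948 CPM in ICH-Fabp4flox/flox and between 931 and 2144 CPM in ICH-Fabp4CKO. The part of thalamic and striatal cells in the Lef1 level, or in any comparison with Sham-Fabp4flox/flox, was not tested.

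The second question is how the hemorrhage response looked when Fabp4 had been deleted in microglia. In ICH-Fabp4CKO against ICH-Fabp4flox/flox, 9 of the 10 members were lower with no overlap of the groups, and Axin2 was the exception. By edgeR with adjustment over the 14600 genes tested, 0 members and 0.0% of all genes were called. At an unadjusted p under 0.05 with at least a 1.5-fold difference the same 9 members were lower, against 4.43% of all genes lower and 4.4% higher. Groups without overlap, lower in ICH-Fabp4CKO, were found for 11.5% of all genes. The median log2 fold change was -1.29 over the members, 0.06 over all genes and -1.23 over the 18 endothelial markers, of which 18 were below 0. Neither count is evidence about these members, since they were chosen with these libraries known.

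**Figure D3:**
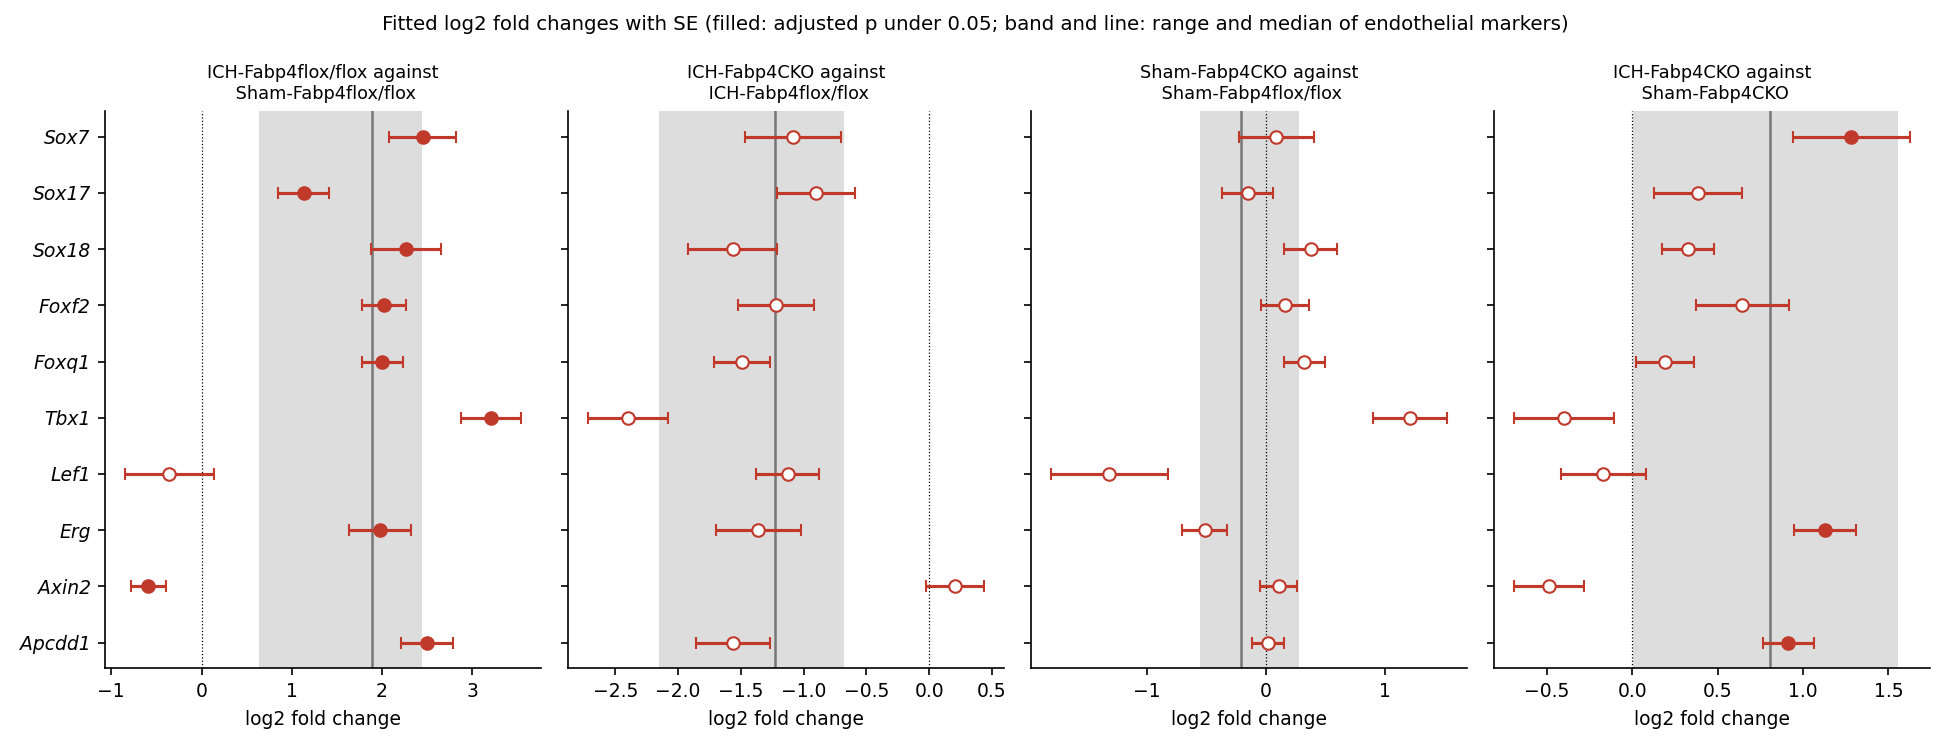
Fitted log2 fold changes (x axis) of the 10 members (rows) with their SE in the 4 comparisons (panels), each panel with its own scale; filled points have an adjusted p under 0.05, the grey band spans the 18 endothelial markers and the grey line is their median. Tbx1 lies outside the band in all 4 panels, and Axin2 is on the other side of 0 from the band in every panel but that of the sham groups.

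Tbx1 had the largest difference, with 1.68, 1.39 and 1.69 CPM in ICH-Fabp4CKO against 11.1, 9.60 and 5.58 CPM in ICH-Fabp4flox/flox. The ICH-Fabp4CKO mice lay close together and far under the other group. The log2 fold change was -2.40 (SE 0.32, unadjusted p = 0.000194, adjusted p = 0.190 by edgeR), which ranked 14 of 14600 genes. Foxq1 ranked 25, at 4.98, 4.74 and 5.14 CPM in ICH-Fabp4CKO against 18.4, 13.6 and 11.6 CPM, a log2 fold change of -1.49 (SE 0.22, adjusted p = 0.214 by edgeR). The ICH-Fabp4CKO mice were again tightly grouped.

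Apcdd1 ranked 64, with 50.7, 50.4 and 65.9 CPM in ICH-Fabp4CKO and a log2 fold change of -1.56 (SE 0.29) from the ICH-Fabp4flox/flox mice. Sox18 read 12.3, 10.4 and 12.2 CPM in ICH-Fabp4CKO, with a log2 fold change of -1.56 (SE 0.35). Erg read 10.1, 7.88 and 7.98 CPM there, with a log2 fold change of -1.36 (SE 0.34). For these genes every ICH-Fabp4CKO mouse was below every ICH-Fabp4flox/flox mouse, and above every mouse of both sham groups.

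Foxf2 read 8.60, 5.17 and 8.36 CPM in ICH-Fabp4CKO, and its log2 fold change was -1.22 (SE 0.30). Sox7 read 7.30, 3.20 and 5.52 CPM, and its log2 fold change was -1.08 (SE 0.38). Both were lowest in mouse 2. For Sox7 the gap between the groups was narrow, with 7.30 CPM as the highest ICH-Fabp4CKO value and 7.65 CPM as the lowest ICH-Fabp4flox/flox value. Sox17 read 4.85, 6.98 and 4.32 CPM, with a log2 fold change of -0.90 (SE 0.31).

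Lef1 read 12.2, 8.95 and 6.56 CPM in ICH-Fabp4CKO, all under the 3 ICH-Fabp4flox/flox mice, with a log2 fold change of -1.13 (SE 0.25). Axin2 read 13.1, 17.0 and 11.97 CPM, which overlapped the ICH-Fabp4flox/flox levels, with a log2 fold change of 0.21 (SE 0.23). The endothelial genes named for scale were lower too: Pecam1 (an adhesion molecule of endothelial junctions) by a log2 fold change of -1.26 (SE 0.39), Cdh5 (VE-cadherin) by -1.27 (SE 0.42) and Cldn5 (the tight junction protein claudin 5) by -2.15 (SE 0.31).

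Whether these differences counted as called depended on the fit. DESeq2 on the same 6 libraries called 7 members lower (Sox18, Foxf2, Foxq1, Tbx1, Lef1, Erg and Apcdd1) among 578 genes, and edgeR over all 12 libraries called the same members without Lef1, 6 in number, among 362 genes. Without ICH-Fabp4CKO mouse 1, whose Y-linked reads stood apart, the log2 fold changes of the 9 members ran from -2.44 for Tbx1 to -0.83 for Sox17, and edgeR called 0 of them.

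Markers of other cells differed between the same groups or between the mice of 1 group. The summed level of the 18 endothelial markers was 2376, 1526 and 1089 CPM in ICH-Fabp4flox/flox mice 1, 2 and 3, in the same order as most members, and 819, 618 and 724 CPM in ICH-Fabp4CKO. The 5 oligodendrocyte markers summed to between 17526 and 27660 CPM in ICH-Fabp4flox/flox and between 6807 and 10874 CPM in ICH-Fabp4CKO, without overlap. The 6 fibroblast markers summed to 412, 233 and 99.5 CPM in ICH-Fabp4flox/flox and to 1142, 76.9 and 2321 CPM in ICH-Fabp4CKO. The summed levels of the 8 pericyte markers overlapped, from 529 to 834 CPM and from 321 to 892 CPM. Taken singly, 6 of the 8 had log2 fold changes below 0 and 2 above 0, from -1.79 to 2.92 with a median of -0.45. Of the pericyte markers 5 were lower without overlap, against 11.5% of all genes. By the unadjusted rule 3 were lower and 1 higher, against 4.43% and 4.4% of all genes. The 6 neuron markers summed to 1057, 1688 and 2468 CPM in ICH-Fabp4flox/flox, the reverse order of the endothelial markers. In ICH-Fabp4CKO they summed to 1540, 3289 and 1135 CPM. The 5 microglia markers summed to 1325, 1173 and 1198 CPM in ICH-Fabp4flox/flox and to 2595, 1288 and 3885 CPM in ICH-Fabp4CKO. None of the endothelial, oligodendrocyte, fibroblast, pericyte, neuron or microglia markers was at 0 in either group. The part of these cells in the members' levels was not tested.

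The sham groups were compared to see the deletion without a hemorrhage. In Sham-Fabp4CKO against Sham-Fabp4flox/flox, edgeR called 0 members and 0.111% of the 14395 genes tested. By the unadjusted rule 1 member was higher, Tbx1, and 1 lower, Lef1, against 0.868% of all genes higher and 3.23% lower. Tbx1 read 1.94, 2.73 and 1.61 CPM in Sham-Fabp4CKO, above all 3 Sham-Fabp4flox/flox mice (0.771 to 1.03 CPM), with a log2 fold change of 1.21 (SE 0.31, adjusted p = 0.392 by edgeR). Foxq1 was also apart, at 4.67, 4.16 and 4.18 CPM, with a log2 fold change of 0.32 (SE 0.17). Erg was apart downwards, at 4.11, 3.81 and 3.95 CPM, with a log2 fold change of -0.52 (SE 0.19). Over all genes 5.97% were higher and 8.86% lower without overlap of the sham groups.

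Markers of other cells also differed between the sham groups. The 5 choroid plexus markers summed to between 852 and 3185 CPM in Sham-Fabp4flox/flox and between 42.1 and 49.1 CPM in Sham-Fabp4CKO, with a median log2 fold change of -4.00, and to at most 28.4 CPM in the ICH groups. The 6 fibroblast markers summed to between 33.0 and 58.1 CPM and between 22.0 and 23.5 CPM in the sham groups, and 6 of 6 were lower by the unadjusted rule, with a median of -1.08. None of these markers was at 0 in either sham group, and the part of these cells in the members' levels was not tested.

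The remaining members overlapped between the sham groups. Lef1 read 10.4, 9.54 and 11.3 CPM in Sham-Fabp4CKO, between the extremes of the Sham-Fabp4flox/flox mice, and its log2 fold change of -1.32 (SE 0.49) came with the thalamic genes described above. Sox7 (2.22, 2.46 and 1.88 CPM), Sox17 (3.79, 3.63 and 4.96 CPM), Sox18 (8.41, 9.45 and 10.02 CPM) and Foxf2 (4.25, 5.82 and 4.09 CPM) had log2 fold changes between -0.16 and 0.37. Axin2 (22.5, 20.8 and 15.8 CPM) and Apcdd1 (31.4, 27.7 and 29.7 CPM) had log2 fold changes of 0.10 and 0.02. Leaving out Sham-Fabp4flox/flox mouse 3 raised the calls over all genes from 16 to 2862 of 14602, and 4 of these were members, Tbx1 and Sox18 higher and Lef1 and Erg lower.

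The response to ICH was also measured within mice lacking microglial Fabp4. In ICH-Fabp4CKO against Sham-Fabp4CKO, 3 members rose and 0 fell, against 24.5% and 11.1% of the 14737 genes tested. They were Sox7, with a log2 fold change of 1.28 (SE 0.34, adjusted p = 0.0340 by edgeR), Erg, with 1.13 (SE 0.18, adjusted p = 0.00950 by edgeR), and Apcdd1, with 0.91 (SE 0.15, adjusted p = 0.00969 by edgeR). The other members had log2 fold changes between -0.49 for Axin2 and 0.64 for Foxf2. Tbx1 was at -0.40 (SE 0.29), with overlapping groups. The median was 0.36 over the members, 0.01 over all genes and 0.81 over the endothelial markers, 9 of which rose. The 3 calls were lost whenever 1 of the Sham-Fabp4CKO mice was left out, with adjusted p between 0.0537 and 0.113, and that of Sox7 also without ICH-Fabp4CKO mouse 1 or 3. Without ICH-Fabp4CKO mouse 2, 6 members were called, Sox18 and Foxf2 higher and Axin2 lower in addition. The share of all genes in that fit is not given here, so nothing is read from this count.

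The difference between the ICH responses of the genotypes was tested directly as an interaction over all 12 libraries. Of the 10 members 1 was called, Tbx1, and 0.0199% of the 15089 genes tested were called. Tbx1 had an interaction of -3.66 on the log2 scale (SE 0.45, adjusted p = 0.0278 by edgeR), the third smallest p of all genes. Its rise was 9.24-fold in Fabp4flox/flox mice, while in Fabp4CKO mice it was 1.32-fold lower after ICH with no call. Foxq1 followed with -1.86 (SE 0.28, adjusted p = 0.0687 by edgeR), the sixth smallest. Sox18 was at -1.99 (SE 0.47), Apcdd1 at -1.63 (SE 0.35), Foxf2 at -1.43 (SE 0.38) and Sox7 at -1.22 (SE 0.53), and these with Tbx1 and Foxq1 made 6 members lower by the unadjusted rule, against 3.29% of all genes. Erg was at -0.90 (SE 0.42), Sox17 at -0.79 (SE 0.40), Lef1 at 0.15 (SE 0.62) and Axin2 at 0.07 (SE 0.28).

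The Tbx1 interaction kept its direction in every alternative run, but its call was lost without ICH-Fabp4CKO mouse 1 (-3.67, adjusted p = 0.113 by edgeR). It was also lost without any 1 of the 6 sham mice, ICH-Fabp4flox/flox mouse 2 or ICH-Fabp4CKO mouse 3. The median interaction was -1.32 over the members, -1.06 over the endothelial markers, all 18 of which were below 0, and 0.03 over all genes. Cldn5 had an interaction of -2.41 (SE 0.36).

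Ordered by mean level, 8 members had ICH-Fabp4flox/flox at the top and apart from the other groups, as did 6.34% of the 15072 genes with enough counts. These values chose the members, so nothing is read from that count. Apcdd1 had means of 172 ± 63.6 CPM in ICH-Fabp4flox/flox, 55.6 ± 8.85 in ICH-Fabp4CKO, 29.6 ± 1.86 in Sham-Fabp4CKO and 29.5 ± 5.41 in Sham-Fabp4flox/flox (SD, n = 3), and its sham groups overlapped. Sox7 and Sox18 had the same order with overlapping sham groups. Foxq1 had 4 groups apart from each other, at 14.5 ± 3.52, 4.95 ± 0.200, 4.34 ± 0.286 and 3.50 ± 0.362 CPM in the same order. Foxf2 in ICH-Fabp4CKO (7.38 ± 1.92 CPM) overlapped Sham-Fabp4CKO (4.72 ± 0.955 CPM), and Sox17 overlapped in all of its 3 lower groups in turn. Erg also had 4 groups apart from each other, with Sham-Fabp4CKO lowest, at 3.96 ± 0.154 CPM. Tbx1 in Sham-Fabp4CKO (2.09 ± 0.576 CPM) overlapped ICH-Fabp4CKO (1.59 ± 0.175 CPM), and both were above Sham-Fabp4flox/flox (0.911 ± 0.132 CPM). For Axin2 each group overlapped its neighbour in the order, from 19.7 ± 3.46 CPM in Sham-Fabp4CKO to 12.6 ± 1.99 CPM in ICH-Fabp4flox/flox.

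**Figure D4:**
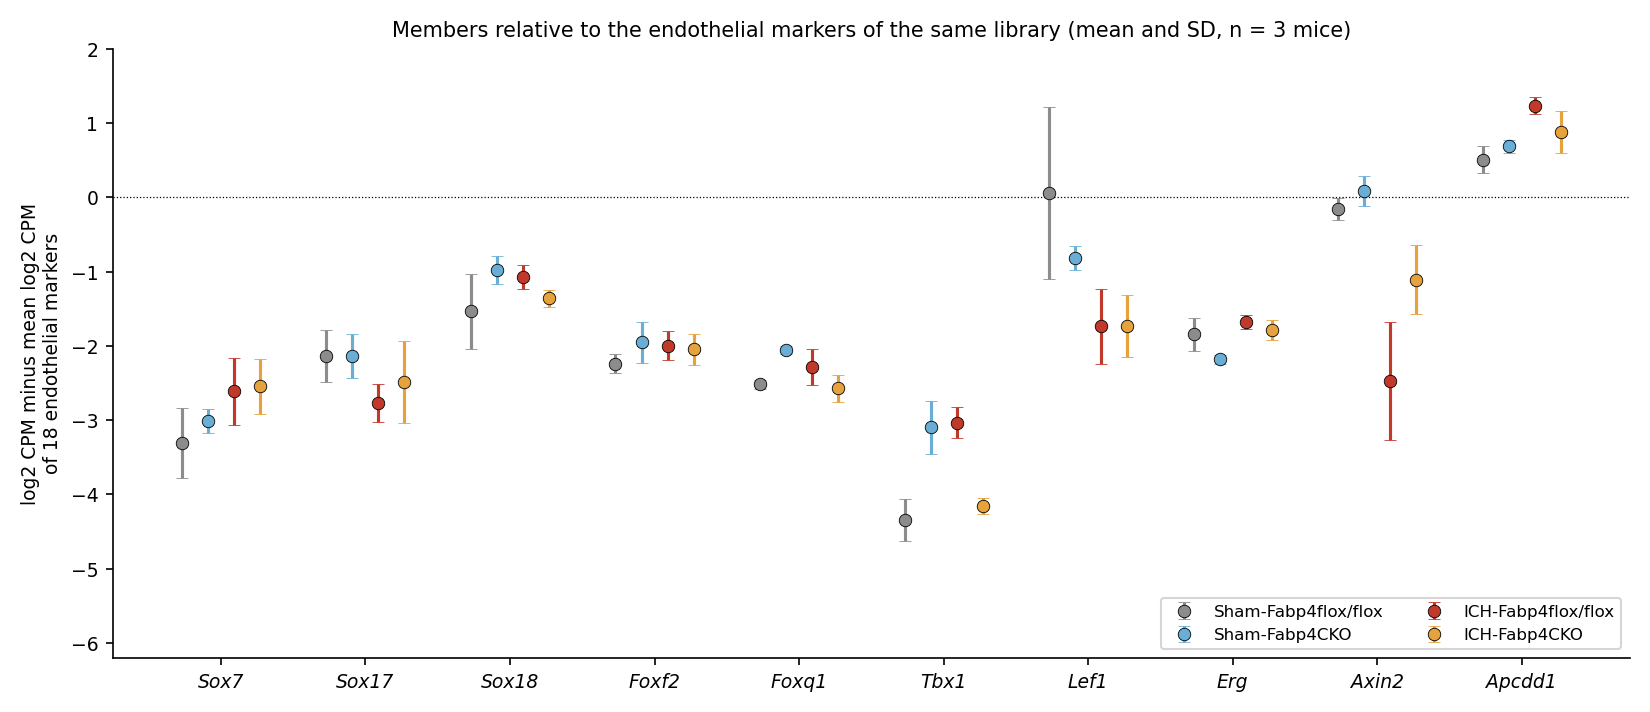
Level of each member as log2 CPM minus the mean log2 CPM of 18 endothelial markers in the same library (y axis), as the mean and SD of 3 mice per group (colours). Axin2, Lef1 and Sox17 have lower means in both ICH groups than in both sham groups on this scale, and Tbx1 is highest in Sham-Fabp4CKO and ICH-Fabp4flox/flox.

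The members were also set against the endothelial markers of the same library. The mean log2 CPM of the 18 markers was 4.37 ± 0.09 in Sham-Fabp4flox/flox, 4.21 ± 0.06 in Sham-Fabp4CKO, 6.13 ± 0.57 in ICH-Fabp4flox/flox and 4.91 ± 0.22 in ICH-Fabp4CKO (SD, n = 3). On this relative log2 scale the members' median difference was 0.24 for ICH-Fabp4flox/flox against Sham-Fabp4flox/flox and -0.08 for ICH-Fabp4CKO against ICH-Fabp4flox/flox. With Pecam1, Cdh5 and Cldn5 alone as the yardstick these medians were -0.36 and 0.27, so their sign depends on the markers. No test was made on this scale.

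Tbx1 exceeded the endothelial mean's change in both comparisons, with relative differences of 1.31 after ICH and -1.12 between the ICH genotypes, and its groups were apart in both. Apcdd1 did so less, at 0.72 and -0.35, also with groups apart. Axin2 stood at -2.32 and 1.37 with groups apart, but this scale carries the markers' own shift. That shift was 1.76 after ICH and -1.22 between the ICH genotypes. The log2 fold changes of Axin2 itself were -0.59 and 0.21, and its levels overlapped between the ICH genotypes. Sox17 was apart after ICH at -0.63, and Sox18 between the ICH genotypes at -0.29. Sox7, Foxf2, Foxq1 and Erg overlapped in both comparisons, with relative differences between 0.17 and 0.69 after ICH and between -0.29 and 0.07 between the ICH genotypes. Lef1 overlapped in both as well, at -1.79 and 0.00.

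Other endothelial transcription factors were a mixed group. Of 23 listed, 13 rose and 1 fell in ICH-Fabp4flox/flox against Sham-Fabp4flox/flox, with a median log2 fold change of 1.17. Elk3, an ETS repressor, rose by 2.37 (SE 0.25), Bcl6b by 2.84 (SE 0.34) on the log2 scale, and Fli1, the ETS factor nearest to ERG, 7.98-fold. Heyl, a Notch effector of the vessel wall, fell by 0.69 on the log2 scale (SE 0.20). In ICH-Fabp4CKO against Sham-Fabp4CKO 8 rose and 0 fell, led by Elk3 at 2.75 (SE 0.38), Fli1 at 3.39 (SE 0.49) and Lyl1 at 3.10 (SE 0.47). Elk3, Fli1 and Lyl1 are also made by blood cells, and the 6 monocyte and macrophage markers summed to between 115 and 691 CPM in ICH-Fabp4flox/flox and between 101 and 513 CPM in ICH-Fabp4CKO, against at most 2.41 CPM in sham tissue. The part of these cells in the rises was not tested. Between the ICH genotypes 3 of the 23 were lower by the unadjusted rule and 0 were higher, with a median of -0.31, where 4.43% of all genes were lower and 4.4% higher by that rule. The same shares stand behind the counts between the ICH genotypes in the lists that follow. For this list and those that follow, the counts after ICH stand beside shares of all genes too. In Fabp4flox/flox mice 26.2% of all genes rose and 19.3% fell, and in Fabp4CKO mice 24.5% rose and 11.1% fell.

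Of 10 Wnt receptors and co-receptors, 4 rose, 0 fell and 6 did not pass the test in ICH-Fabp4flox/flox against Sham-Fabp4flox/flox, where 26.2% of all genes rose. The co-receptor gene Lrp5 rose by 1.16 (SE 0.17), Adgra2, which encodes GPR124, by 1.62 (SE 0.29) and Fzd6 by 1.04 (SE 0.19) on the log2 scale. In ICH-Fabp4CKO against Sham-Fabp4CKO 5 rose, among them Fzd6 by 0.79 (SE 0.14), Lrp5 by 2.09 (SE 0.40) and Fzd4, the Norrin receptor, by 0.77 (SE 0.19). Between the ICH genotypes 4 were lower and 2 higher by the unadjusted rule. Adgra2 was at -1.09 (SE 0.31) there.

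The ligands split. The 8 ligand genes listed include Ndp, which encodes Norrin rather than a Wnt protein. Of the 8, Wnt7b rose in both genotypes, by 0.88 (SE 0.14) in Fabp4flox/flox and 1.05 (SE 0.25) in Fabp4CKO mice on the log2 scale. Wnt4 fell in both, with log2 fold changes of -2.09 (SE 0.42) and -1.17 (SE 0.23), and Wnt9a fell in Fabp4flox/flox mice with -1.94 (SE 0.55). Between the ICH genotypes 1 ligand was lower by the unadjusted rule. Of the 13 genes of the destruction complex and the nuclear partners of beta-catenin, 2 rose and 2 fell in Fabp4flox/flox mice. The TCF genes Tcf7l1 and Tcf7 rose by 0.85 (SE 0.17) and 1.27 (SE 0.27), while the beta-catenin adaptor gene Bcl9 was at -0.82 (SE 0.16) and Tcf7l2 at -2.67 (SE 0.66). Tcf7l2, although not on the list of thalamic markers, also stood high with them in Sham-Fabp4flox/flox mice 1 and 2. In Fabp4CKO mice 0 rose and 3 fell, namely Bcl9 at -0.55 (SE 0.12), Tcf7l2 at -1.21 (SE 0.30) and the kinase gene Gsk3b at -0.63 (SE 0.16). Tcf7 is also on the list of T cell markers. Of the 5 T cell markers tested, 4 rose in Fabp4flox/flox mice, Tcf7 among them, where 26.2% of all genes rose. The list summed to between 21.2 and 54.2 CPM in Sham-Fabp4flox/flox and between 31.2 and 74.7 CPM in ICH-Fabp4flox/flox. The part of T cells in the rise of Tcf7 was not tested.

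Of 13 other Wnt targets and secreted inhibitors, 2 rose and 3 fell in ICH-Fabp4flox/flox against Sham-Fabp4flox/flox, where 26.2% of all genes rose and 19.3% fell, and nothing is read from these counts. The direct target Sp5 rose by 1.85 (SE 0.49) and Rnf43, a ligase that removes Frizzled receptors, by 1.00 (SE 0.31) on the log2 scale. The secreted inhibitor genes Sfrp2 and Wif1 were at -2.55 (SE 0.35) and -2.26 (SE 0.52), and the receptor gene Lgr5 at -1.62 (SE 0.30). In ICH-Fabp4CKO against Sham-Fabp4CKO 2 rose and 4 fell, with Dkk3 at 1.05 (SE 0.22), Dkk2 at 1.40 (SE 0.41), Sfrp2 at -2.30 (SE 0.32), Wif1 at -1.98 (SE 0.41) and Nkd1 at -0.82 (SE 0.22). Of the 7 Notch genes 4 rose and 0 fell in Fabp4flox/flox mice, with Dll4, the ligand of sprouting tip cells, at 2.16 (SE 0.37), Notch4 at 2.02 (SE 0.38) and Notch1 at 0.84 (SE 0.14). In Fabp4CKO mice 4 rose and 1 fell, with Notch4 at 2.45 (SE 0.64), Jag1 at 1.69 (SE 0.38), Notch1 at 0.85 (SE 0.16) and Jag2 at -0.91 (SE 0.28). Between the ICH genotypes 0 of the 7 passed the unadjusted rule.

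The genes whose levels over the 12 libraries were most like the mean of the 10 members were sought among 15062 others. Likeness was the root mean square difference in log2 CPM after centring each gene. The nearest were Metrn (0.146), Apln (0.147), Ptprb (0.149), Adgra2 (0.166), Dbndd2 (0.186), Cldn11 (0.190), Trp53inp2 (0.194), Snx22 (0.196), Flt4 (0.197) and Afap1l1 (0.198). Among the members themselves Foxq1 was nearest to their mean (0.154), then Foxf2 (0.232), and Axin2 (0.966) and Lef1 (0.846) were farthest. Apln encodes the vessel peptide apelin, Ptprb the endothelial phosphatase VE-PTP, Flt4 the receptor VEGFR3 and Cldn11 a tight junction protein of myelin. The list of endothelial markers used here holds none of the genes named as nearest.

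The exons of Sox17, Foxf2, Foxq1, Lef1 and Axin2 each overlap those of 1 antisense gene in the GENCODE annotation of the mouse. The strand setting of the counting was not given in the sources used here, so reads of these antisense genes could be part of the counts.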

How the data were processed

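Hematoma-adjacent tissue, or the matching tissue of sham mice, was measured by bulk RNA sequencing in 12 libraries, each taken as 1 mouse. The authors deposited 1 table of estimated counts per gene, and between 7.36% and 8.69% of each library's values were not whole, so they were rounded. The submitters' processing notes name Bowtie2 2.2.8, HISAT2, StringTie 1.3.1 and DESeq2, and the genome build was not given in the sources used here. The libraries held between 15650813 and 22406216 counts. No other normalization had been applied by the authors. Genes were kept by filterByExpr (minimum count 10, minimum total 15).

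Groups were compared with edgeR 4.0.16 (R 4.3.3), with TMM scaling, quasi-likelihood F-tests and Benjamini-Hochberg adjustment over all genes tested, at a threshold of 0.05. Each of the 4 comparisons was fitted on its own 6 libraries, and the interaction on all 12. The SE is the log2 fold change divided by the root of F. Log2 CPM used a prior count of 2. DESeq2 1.42.0 was an alternative, and the code was tested on simulated data. The unadjusted rule is p under 0.05 with at least a 1.5-fold difference.

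The members and the gene lists were chosen with earlier results of these data known. All 10 members are named. Of each pathway list the text names at most 3 genes per direction with the smallest p among those called, and Pecam1, Cdh5 and Cldn5 always. A few genes outside that rule (Fabp4, the thalamic genes and, between the ICH genotypes, Adgra2) were chosen after their values were seen. Same-numbered mice did not deviate together: the correlation of their deviations ran from -0.58 to 0.31, so the numbers were not treated as pairs. No library was a copy of another. The comparisons that share a group are not independent of each other.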

Additional observations from a re-analysis of the deposited data

Results flagged for a closer look

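The ICH response of Tbx1 was unequal in the genotypes, with a fitted interaction of -3.66 on the log2 scale (CKO minus flox/flox, adjusted p = 0.0278 by edgeR over 15089 genes). It rose in Fabp4flox/flox mice by 3.21 on the log2 scale, and in Fabp4CKO mice its log2 fold change was -0.40 with overlapping groups. The interaction was lost as a call (0 members) in 9 of the 12 fits that left out 1 mouse and with the replicate block. Tbx1 was among the genes chosen with these libraries known, so its p is a place in the whole-table fit and no independent evidence, its raw counts were the lowest of the 10 members, and Sham-Fabp4CKO already stood above Sham-Fabp4flox/flox.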

How the results depend on the processing

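The limits are the 3 mice per group, the spread of the ICH-Fabp4flox/flox mice in all vessel genes and the low counts of Tbx1. Thalamic, striatal, choroid plexus, fibroblast, neuron and microglia genes that differ between mice of 1 group are a further limit. The fewest members called when 1 mouse was left out was 7 and the most 9 in ICH-Fabp4flox/flox against Sham-Fabp4flox/flox, 0 in all such fits of ICH-Fabp4CKO against ICH-Fabp4flox/flox, 0 to 4 in Sham-Fabp4CKO against Sham-Fabp4flox/flox, 0 to 6 in ICH-Fabp4CKO against Sham-Fabp4CKO and 0 to 3 in the interaction. For the interaction, leaving out ICH-Fabp4flox/flox mouse 3 gave the 3 calls. Calls over all genes moved between such fits as well. In ICH-Fabp4flox/flox against Sham-Fabp4flox/flox they were 4181 of 14910 without ICH-Fabp4flox/flox mouse 2 and 8165 of 14925 without ICH-Fabp4flox/flox mouse 3. Nothing is read from the member counts of these fits. Such fits have fewer samples, and the cause of a lost or gained call was not tested.

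The members called in ICH-Fabp4CKO against ICH-Fabp4flox/flox were 9 by the unadjusted rule, 7 with DESeq2 and 6 with all 12 libraries in one fit, against 0. Over all genes these settings called 1290 of 14600, 578 of 14600 and 362 of 15089, in that order. In the sham comparison the unadjusted rule gave 2. In the interaction it gave 6, and DESeq2 gave 4, against 1. A replicate block in the fit left the interaction with 0 members called, ICH-Fabp4flox/flox against Sham-Fabp4flox/flox 8, ICH-Fabp4CKO against Sham-Fabp4CKO 2 and the other comparisons 0. With that block 7262 of 14719 genes were called in ICH-Fabp4flox/flox against Sham-Fabp4flox/flox. The replicate numbers do not pair the mice. Nothing is read from the member counts of these alternative settings.

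Signs turned for members with values near 0 that were not called in those fits. Without TMM the sham log2 fold change of Apcdd1 was -0.016, and with the replicate block the interaction of Lef1 was -0.083. Leaving out 1 mouse gave sham log2 fold changes from -0.10 to 0.46 for Sox7, -0.32 to 0.013 for Sox17, -0.021 to 0.24 for Foxf2, -0.011 to 0.23 for Axin2 and -0.073 to 0.16 for Apcdd1, and interactions from -0.26 to 0.58 for Lef1 and -0.10 to 0.17 for Axin2. Without TMM all genes shift by -0.10 on the log2 scale in ICH-Fabp4flox/flox against Sham-Fabp4flox/flox. With Pecam1, Cdh5 and Cldn5 alone, the members' median relative to the endothelial markers was -0.36 in that comparison and 0.27 between the ICH genotypes, with a turned sign in both.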
